A study of Mus musculus with 9 samples.

Results

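CTCF binding was examined at the loci of the CD3 genes, which encode the signalling chains of the T cell receptor. CTCF is a zinc-finger protein that binds DNA at insulators and, with cohesin, at the anchors of chromatin loops. The receptor's own alpha and beta chains recognise antigen but signal poorly by themselves, and the CD3 chains pass the signal into the cell. Cd3g, Cd3d and Cd3e encode the gamma, delta and epsilon chains, which pair as gamma-epsilon and delta-epsilon dimers and lie next to each other on chromosome 9. Cd247, on chromosome 1, encodes the zeta chain, which forms the dimer that carries most of the tyrosine activation motifs of the complex and recruits the kinase Zap70 once phosphorylated. All of these genes are expressed throughout the T cell lineage.

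The loci were defined as 2 windows of mm9, chr1:167650000-167900000 for Cd247 and chr9:44700000-44900000 for Cd3g, Cd3d and Cd3e. Overlapping CTCF peaks (1 bp or more) of 8 libraries were merged, which gave 34 regions touching these windows, 17 in each, of 39574 regions in the whole series. Regions are numbered within a window from the lowest coordinate. The loci were chosen with results of these libraries known, among them the strong peak of region 16 in the Cd247 window, and the differences between genotypes are therefore given as a description with no test. In the RefSeq gene order of GRCm38.p6, Cd247 lies between Creg1 and Pou2f1, and the Cd3g, Cd3d and Cd3e cluster between Ube4a and Mpzl2. Neither gene models nor sequence of mm9 were used here, so no region is assigned to a promoter, exon or intron, and the DNA sequence under the peaks is not shown.

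The 4 groups were CD8+ T cells lacking Tcf1 and Lef1 (DKO) after 72 h of culture with IL-7 and IL-15, wild-type (WT) cells after the same 72 h, DKO cells at 0 h and WT cells at 0 h, with 2 CTCF libraries each. Tcf1, encoded by Tcf7, and Lef1 bind DNA through an HMG box and act in T cell development and in keeping cells naive. Mice of both genotypes carried the hCD2-Cre transgene, in which the human CD2 promoter drives Cre in lymphocytes, and the Rosa26-lsl-GFP reporter. In the DKO mice the genes of both factors were floxed. Splenic naive CD8+ cells positive for GFP and TCRbeta, with high CD62L and low to medium CD44, were sorted before culture, so GFP marked cells in which Cre had acted. Binding was mapped by CUT&RUN, in which a nuclease tethered to an antibody frees the DNA fragments around the bound protein. CTCF peaks do not report expression, so neither the loss of Tcf1 and Lef1 nor the cell type could be checked in these lists. Nothing in the labels says whether the replicates were separate animals, and ages were not given.

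The lists differed in length. Those of DKO cells at 72 h held 10339 and 16234 peaks, and those of WT cells at 72 h held 17335 and 26630. At 0 h the DKO lists held 30309 and 31394 peaks and the WT lists 32587 and 30968. Read depth is unknown, since the lists give no read totals, so an absent peak means only that none was listed at this depth and threshold. The IgG list of WT cells at 0 h held 5 peaks, of which 0 lay in either window. It was the only IgG list and came from WT cells, so the background in DKO cells was not measured here. Fold is the authors' enrichment of a peak over its local background. It belongs to its own list and was not scaled between libraries, and its median over whole lists ran from 7.03 to 9.06 at 72 h and from 9.78 to 10.4 at 0 h.

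The number of peaks in the Cd247 window was 8 in each DKO library against 6 and 8 in WT at 72 h. The 0 h libraries had 16 and 12 in DKO against 9 and 11 in WT. The mean was 8 ± 0 in DKO against 7 ± 1.41 in WT at 72 h, and at 0 h it was 14 ± 2.83 in DKO against 10 ± 1.41 in WT (SD, n = 2 each). In the chromosome 9 window, DKO libraries had 6 and 10 peaks and WT libraries 9 and 14 at 72 h, while at 0 h DKO libraries had 13 and 14 and WT libraries 15 and 13. The genotypes overlapped in the chromosome 9 window at both times. In the Cd247 window they did not overlap at 0 h. There, regions 7, 8, 10 and 12 were each found in 1 DKO library and in no other library. Regions found in a single library made up 5 of the 34 (14.7%) in both windows, the same share as among all regions (14.7%).

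**Figure D1:**
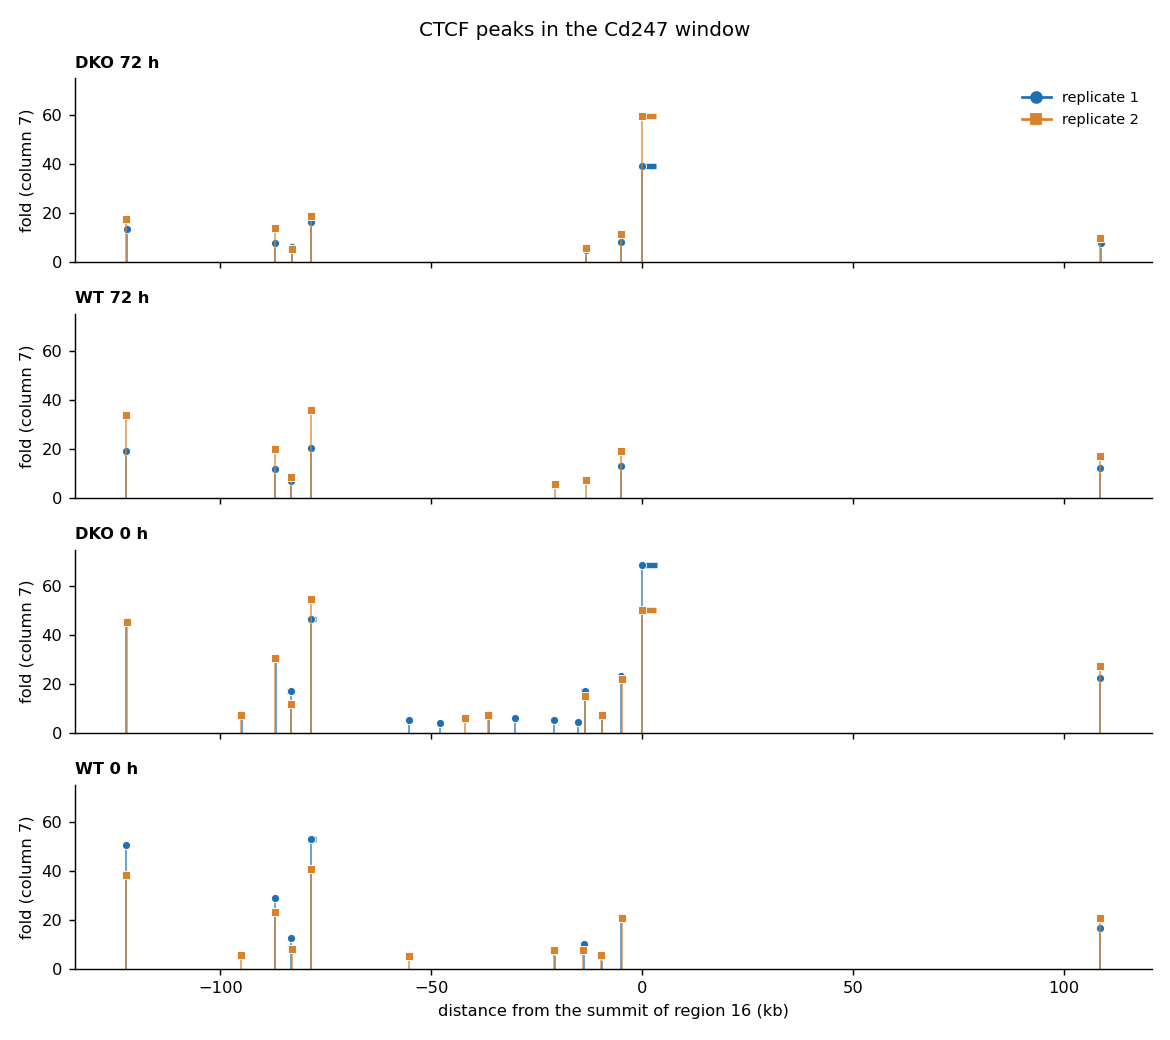
CTCF peaks in the Cd247 window by group, from top to bottom DKO 72 h, WT 72 h, DKO 0 h and WT 0 h. The x axis is the distance in kb from the summit of region 16, the y axis the fold of each peak on a linear scale, horizontal bars the peak's extent, and colours the replicates. The tall peak at 0 kb is present in the 4 DKO libraries, with folds of 39.3 to 68.8, and in no WT library.

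Of the 6 regions of the Cd247 window found in all 8 libraries, regions 1, 3, 4 and 5 lay at its low-coordinate end. Region 5 (chr1:167709653-167711518) had the highest fold of the window in every WT library. Its fold was 16.3 and 18.9 in DKO against 20.3 and 35.8 in WT at 72 h, and at 0 h 46.6 and 54.9 in DKO against 52.8 and 40.6 in WT. At 0 h the genotypes overlapped, and at 72 h both DKO values were the lower. Region 5 ranked high in every list, at percentiles of 97.8 to 99.4 by the authors' p-value.

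Region 1 (chr1:167666045-167667240) followed it closely. Its fold was 13.7 and 17.6 in DKO against 19.1 and 33.8 in WT at 72 h, and at 0 h 45.8 and 45.3 in DKO against 50.7 and 38.2 in WT. In each WT library region 1 reached 94.1% to 95.9% of the fold of region 5 at 0 h, and 94.2% and 94.3% at 72 h.

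Region 3 (chr1:167701371-167702206) had folds of 8.01 and 14.1 in DKO against 11.9 and 19.8 in WT at 72 h, and at 0 h 30.7 and 30.8 in DKO against 29.0 and 23.2 in WT. Region 4 (chr1:167704658-167706217), 2451 bp beyond it, was weaker. Its fold was 6.09 and 5.43 in DKO against 6.93 and 8.50 in WT at 72 h, and at 0 h 17.1 and 11.9 in DKO against 12.7 and 8.05 in WT. For region 3 both DKO libraries lay above both WT libraries at 0 h, and for region 4 the genotypes overlapped there.

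Region 16 (chr1:167788481-167792284) was listed in all 4 DKO libraries and in no WT library. Its fold in the DKO libraries was 39.3 and 59.5 after 72 h, and 68.8 and 50.4 at 0 h. By p-value it was the first peak of each DKO list at 72 h, and it ranked 129 of 30309 and 156 of 31394 in the DKO lists at 0 h. These values are those for which the locus was chosen, and they are given as a description. With no IgG list of DKO cells, the signal without the CTCF antibody at region 16 is not known for the genotype in which the peak was listed.

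Among all 39574 regions, 5 had a peak in all 4 DKO libraries and no WT library (0.0126%), and region 16 was the widest of them. Region 16 was 3804 bp wide, against 561 to 901 bp for the other regions of that kind. The reverse, all 4 WT libraries and no DKO library, held for 0 of the 34 regions here and for 0.498% of all regions. Over the whole series, 20 regions, region 16 included, were at least this wide, and the median region was 747 bp. The peak of region 16 was the widest of both DKO lists at 72 h, and ranked 7 and 12 by width in the DKO lists at 0 h.

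The 4 DKO libraries gave region 16 the same shape. Its peak was 3641 and 3646 bp wide at 72 h and 3804 and 3667 bp at 0 h, with starts within 128 bp and ends within 81 bp of each other. The summits lay within 67 bp of each other, between 167788819 and 167788886. They stood 272 and 282 bp from the peak's start at 72 h and 382 and 282 bp at 0 h, so that 3364 to 3422 bp of the peak followed the summit on the side of higher coordinates.

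**Figure D2:**
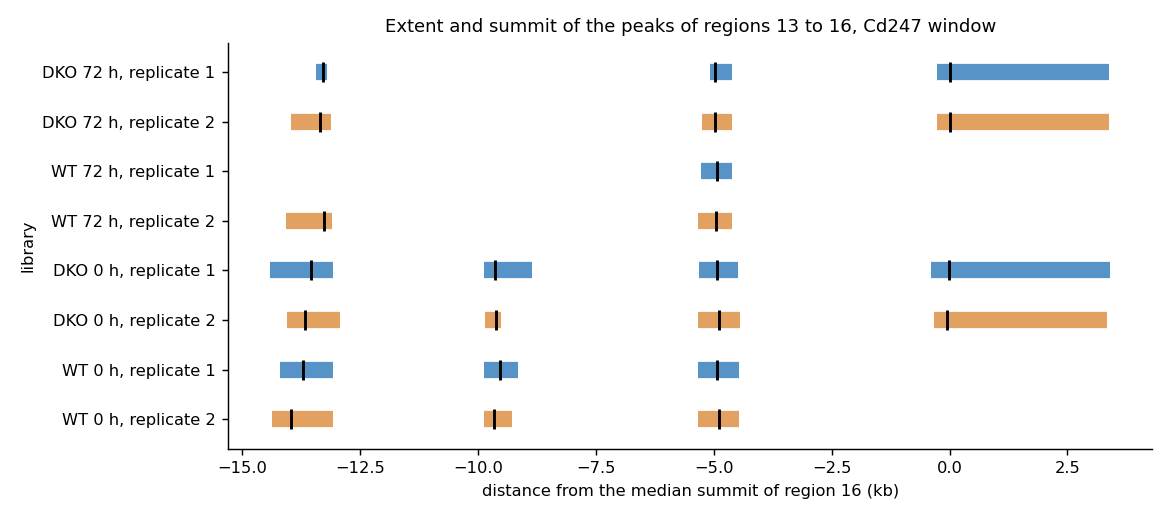
Extent of the peaks of regions 13 to 16 of the Cd247 window in each library, with the distance in kb from the median summit of region 16 on the x axis, 1 row per library, coloured bars for the peak's extent and black ticks for the summit. Region 16 spans from 3641 to 3804 bp in the DKO libraries with its summit near the left end, and the WT rows are empty there, while region 15, about 5 kb to the left, is found in all 8 rows.

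Region 15 (chr1:167783532-167784422), whose end lies 4058 bp before region 16, was found in all 8 libraries. Its fold was 8.12 and 11.6 in DKO against 12.9 and 19.0 in WT at 72 h, and at 0 h 23.3 and 22.1 in DKO against 21.0 and 20.9 in WT. Both DKO values lay below the WT values at 72 h and above them at 0 h. Region 17 (chr1:167896955-167898202), the next region on the other side at a gap of 104670 bp, had the same order. Its fold was 7.73 and 9.94 in DKO against 12.1 and 16.8 in WT at 72 h, and at 0 h 22.6 and 27.5 in DKO against 16.7 and 20.6 in WT.

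Region 13 (chr1:167774460-167775942) was listed in 7 libraries. Its fold was 5.16 and 5.67 in DKO against 7.21 in WT replicate 2 at 72 h, and at 0 h 17.2 and 15.4 in DKO against 10.1 and 7.64 in WT. Region 14 (chr1:167778985-167780007) was listed at 0 h alone, with a fold of 7.36 and 7.41 in DKO and 5.29 and 5.60 in WT. At both regions the DKO values at 0 h lay above the WT values.

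Set against regions 5 and 1 in the same library, region 16 stood out most at 72 h. In DKO the fold of regions 5 and 1 was lower at 72 h, while that of region 16 overlapped between the times. In the DKO libraries at 72 h, region 5 had 41.4% and 31.7% of the fold of region 16, and region 1 had 34.8% and 29.6%. At 0 h, region 5 had 67.7% of it in DKO replicate 1, and in DKO replicate 2 region 16 had 91.9% of the fold of region 5. Region 16 was the first of the window by fold in 3 DKO libraries and the second in DKO 0 h replicate 2.

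The stretch between regions 5 and 13 held no peak of a fold above 7.94. Region 9 (chr1:167752277-167752733) was listed in both DKO libraries at 0 h, with folds of 7.94 and 7.63, and in no other library. Region 11 (chr1:167767597-167768590) was listed at fold 5.43 in WT 72 h replicate 2, at 5.60 in DKO 0 h replicate 1, and at 7.40 and 7.64 in WT at 0 h. Region 2 (chr1:167692976-167694485), between regions 1 and 3, was listed at 7.94 and 7.63 in DKO at 0 h, the same values as region 9 in these libraries, and at 5.60 in WT 0 h replicate 2. Region 6 was listed at 5.28 in DKO replicate 1 and 5.33 in WT replicate 2 at 0 h, and regions 7, 8, 10 and 12 had folds from 4.24 to 6.30 in 1 DKO library at 0 h each.

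**Figure D3:**
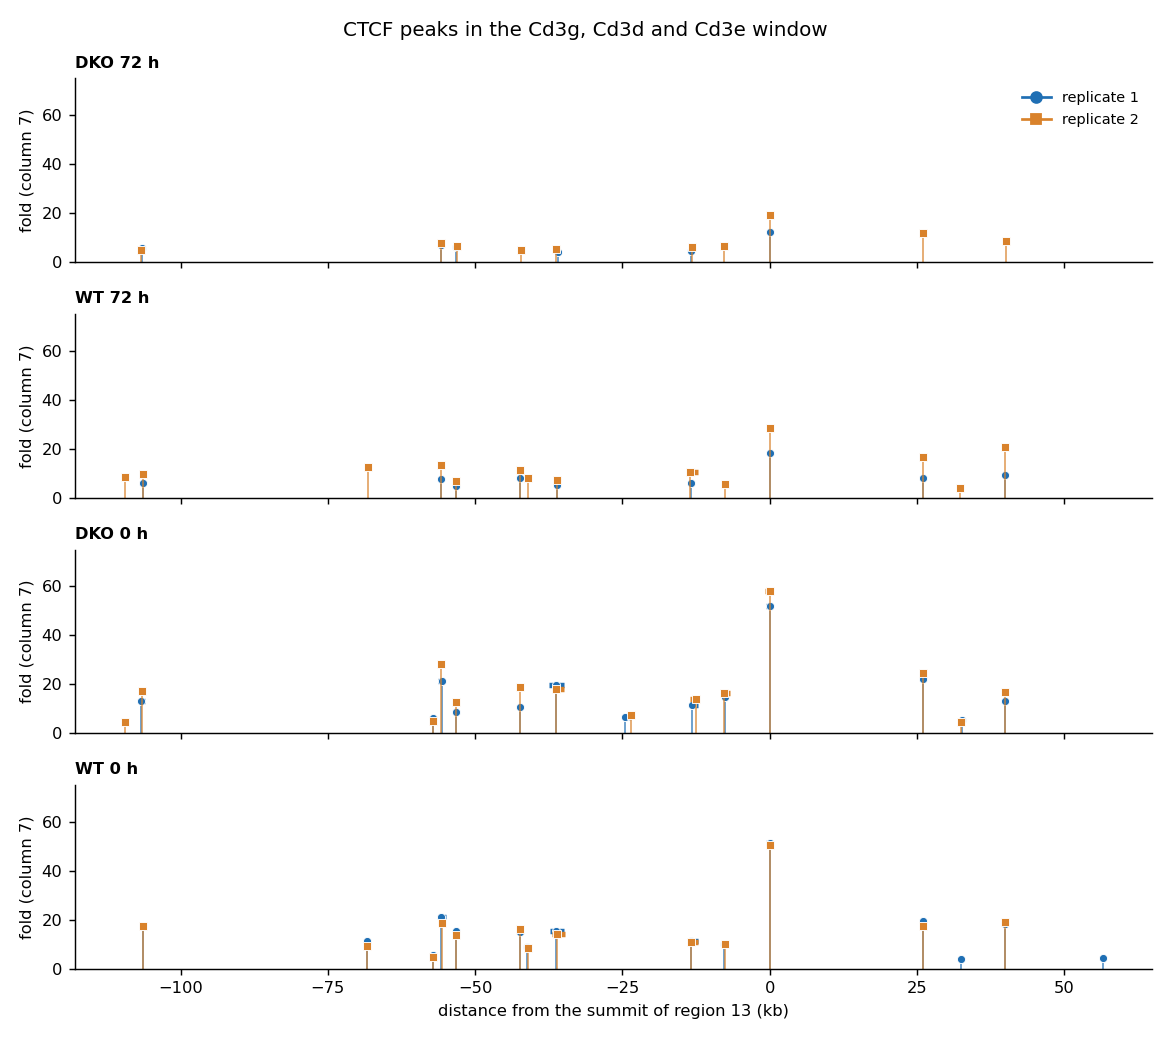
CTCF peaks in the Cd3g, Cd3d and Cd3e window by group, from top to bottom DKO 72 h, WT 72 h, DKO 0 h and WT 0 h. The x axis is the distance in kb from the summit of region 13, the y axis the fold of each peak on a linear scale, horizontal bars the peak's extent, and colours the replicates. Region 13 leads in all 8 libraries, with folds from 12.3 to 58.2, and regions 3 and 8 appear in WT libraries and in no DKO library.

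The chromosome 9 window had 1 dominant region. Region 13 (chr9:44830187-44831564) had the highest fold of the window in each of the 8 libraries. Its fold was 12.3 and 19.5 in DKO against 18.1 and 28.6 in WT at 72 h, and at 0 h 51.8 and 58.2 in DKO against 51.4 and 50.6 in WT. The genotypes overlapped at 72 h, and at 0 h both DKO values lay above the WT values, but not with fold divided by the median of its list. The summits of region 13 lay within 74 bp of each other in the 8 libraries.

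Regions 14 and 16 lay beyond it on the side of higher coordinates and were missing from DKO 72 h replicate 1, the shortest list. Region 14 (chr9:44856390-44857445) had a fold of 11.7 in DKO replicate 2 against 8.23 and 16.8 in WT at 72 h, and at 0 h 22.3 and 24.7 in DKO against 19.4 and 17.3 in WT. Region 16 (chr9:44870534-44871361) had 8.55 in DKO replicate 2 against 9.14 and 20.9 in WT at 72 h, and at 0 h 13.1 and 16.8 in DKO against 18.2 and 18.9 in WT. The order of the genotypes at 0 h was thus opposite at these neighbours, with DKO the higher at region 14 and the lower at region 16.

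Regions 5 and 6 lay close together, 1239 bp apart, and were found in all 8 libraries. Region 5 (chr9:44774610-44775933) had folds of 6.87 and 7.94 in DKO against 7.45 and 13.3 in WT at 72 h, and at 0 h 21.4 and 28.2 in DKO against 21.1 and 18.6 in WT. Region 6 (chr9:44777173-44778066) had 6.14 and 6.42 in DKO against 4.86 and 6.97 in WT at 72 h, and at 0 h 8.58 and 12.8 in DKO against 15.4 and 13.8 in WT. At 0 h the DKO values were the higher at region 5 and the lower at region 6, and at 72 h the genotypes overlapped at both. With fold divided by the median of its list, DKO was no longer the higher at region 5 at 0 h. With the same scaling, both DKO values were the higher at region 6 at 72 h.

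Region 9 (chr9:44793461-44796252), the widest merged region of this window at 2792 bp, had folds of 4.28 and 5.25 in DKO against 5.20 and 7.07 in WT at 72 h, and at 0 h 19.8 and 17.9 in DKO against 15.3 and 14.0 in WT. Its single peaks were 846 to 1115 bp wide at 72 h and 2010 to 2528 bp at 0 h. Region 11 (chr9:44817264-44818867) had 4.64 and 6.29 in DKO against 6.13 and 10.3 in WT at 72 h, and at 0 h 11.4 and 14.1 in DKO against 11.4 and 10.9 in WT. Region 2 (chr9:44723958-44724835) had 5.94 and 5.11 in DKO against 6.13 and 9.68 in WT at 72 h, and at 0 h 13.2 and 17.2 in DKO against 17.4 in each WT library. At region 2 the DKO values were the lower at both times, but at 72 h no longer so with fold divided by the median of its list. At region 9 they were the higher at 0 h, and at region 11 the genotypes overlapped at both times.

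Region 7 (chr9:44788055-44789015) had a fold of 4.80 in DKO replicate 2 against 7.94 and 11.1 in WT at 72 h, and at 0 h 10.8 and 19.0 in DKO against 15.0 and 16.4 in WT. Region 12 (chr9:44822809-44824177) had 6.69 in DKO replicate 2 against 5.43 in WT replicate 2 at 72 h, and at 0 h 14.8 and 16.2 in DKO against 10.1 in each WT library. At 0 h the genotypes overlapped at region 7, and both DKO values were above the WT values at region 12.

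Regions 3 and 8 of the chromosome 9 window were found in WT libraries and in no DKO library. Region 3 (chr9:44762369-44763119) had a fold of 12.4 in WT replicate 2 at 72 h and 11.5 and 9.46 in WT at 0 h. Region 8 (chr9:44789335-44790266), 319 bp beyond region 7, had 7.89 in WT replicate 2 at 72 h and 8.80 and 8.40 in WT at 0 h. WT 72 h replicate 1 lacked both. Their ranks ran from the percentile of 39.7 to that of 62.7 for region 3, around the middle of the lists, and from 34.8 to 37.6 for region 8, below the middle. With a gap of up to 500 bp merged, region 8 joined region 7 and no longer stood alone.

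Region 10 (chr9:44806050-44807603) was the reverse case, listed in both DKO libraries at 0 h with folds of 6.62 and 7.29 and in no other library. Its summits in these libraries lay 957 bp apart. Region 4 (chr9:44773192-44774057) was listed in the 4 libraries at 0 h alone, at 6.34 and 4.80 in DKO and 5.43 and 4.68 in WT. Region 15 (chr9:44863210-44864005) was listed at 4.16 in WT 72 h replicate 2, at 5.55 and 4.71 in DKO at 0 h, and at 4.05 in WT 0 h replicate 1. Region 1 was listed at 8.38 in WT 72 h replicate 2 and at 4.40 in DKO 0 h replicate 2, and region 17 at 4.49 in WT 0 h replicate 1.

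**Figure D4:**
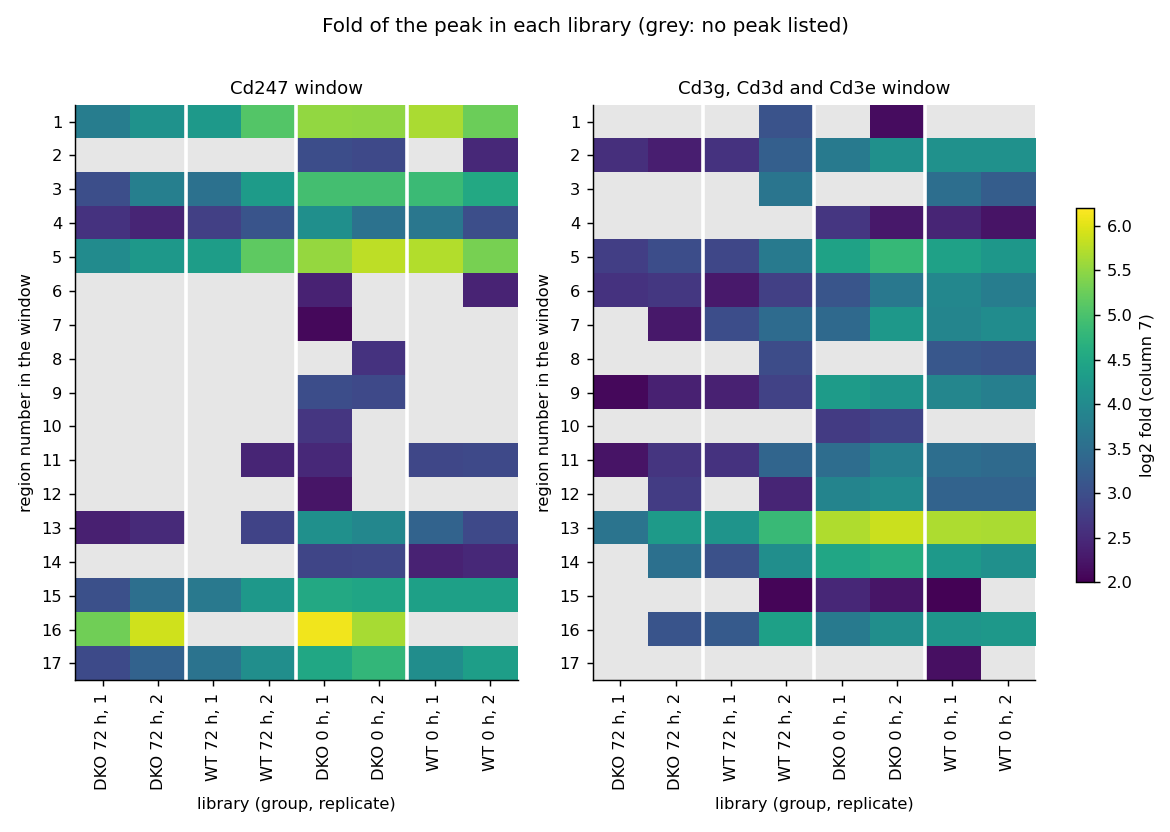
Fold of the peak of each region (rows, numbered along the window) in each library (columns, by group and replicate), for the Cd247 window on the left and the chromosome 9 window on the right. Colour is log2 of the authors' fold and grey means that no peak was listed. Of the 34 regions, 12 are coloured in all 8 columns, and region 16 of the Cd247 window is coloured in the 4 DKO columns alone.

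The DKO and WT lists were then compared by counting regions found in both libraries of a genotype and neither library of the other. At 0 h, 3 of 34 regions were found in DKO alone (regions 9 and 16 of the Cd247 window and region 10 of the chromosome 9 window), and over all regions the share was 2.81%. In WT alone at 0 h there were 2 of 34 (regions 3 and 8 of the chromosome 9 window), against 5.03% of all regions. At 72 h, 1 of 23 regions was found in DKO alone, against 0.0454% of all regions, and 0 in WT alone, against 9.53%. The loci were chosen on this contrast, so nothing is read from these shares, and 2 libraries against 2 cannot give an exact two-sided p below 0.333. With every list at the length of the shortest, the DKO counts were 1 at 0 h and 2 at 72 h, and the WT count at 0 h was 1. Region 6 of the chromosome 9 window, found in all 8 full lists, was the region added at 72 h, as its WT peaks fell beyond the cut. Leaving out a library loosens the rule, so such counts could only stay or rise. The DKO count at 0 h was 5 without DKO replicate 1 and 6 without DKO replicate 2. At 72 h the DKO count was 2 without WT replicate 2, and the WT count was 3 without DKO replicate 2 and 5 without WT replicate 1. Shares over all regions were not computed for these alternatives.

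The genotypes were also compared by fold at regions with a peak in all 4 libraries of a time. At 0 h, 10 of 19 regions had both DKO values above both WT values and 3 had them below, with shares of 28.2% and 15% among all such regions. In the Cd247 window alone these were 5 and 0 of 8 regions, and in the chromosome 9 window 5 and 3 of 11. With fold divided by the median of its list, the Cd247 counts at 0 h were again 5 and 0, and the chromosome 9 counts were 3 and 3, regions 5 and 13 no longer lying above. The shares among all regions were then 22.7% above and 19.3% below. At 72 h, 0 of 12 regions had both DKO values above and 6 had them below, with shares of 0.186% and 50.6% among all regions, and 5 of the 6 lay in the Cd247 window. With the same scaling, 1 and 6 of the 12 regions lay above and below at 72 h, with shares of 0.982% and 50% among all regions. Among those below, region 9 of the chromosome 9 window then took the place of region 2. With every list at the length of the shortest, the count below at 0 h was 0. Regions 2, 6 and 16 of the chromosome 9 window were then no longer compared. Their peaks in DKO 0 h replicate 1 ranked 11725, 14212 and 14268, beyond the cut at 10339. The count above at 0 h was 16 without WT replicate 1, and that below was 5 without DKO replicate 2. At 72 h the count above was 1 without WT replicate 2, and that below was 11 without DKO replicate 2 and 13 without WT replicate 1. Leaving out a library can let in regions that lacked a peak in it, so these counts are not out of 19 or 12. Shares among all regions were not computed for equal lengths or for libraries left out.

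The 72 h and 0 h libraries were compared to describe the loci after culture with IL-7 and IL-15. All 8 libraries held 12 of the 34 regions, 6 in each window, or 35.3% against 24.2% of all regions. Of the 19 regions found in all 4 libraries at 0 h, 13 kept a peak in each 72 h library of DKO and 15 in each 72 h library of WT, that is 68.4% and 78.9%, with shares of 40% and 64.6% among all such regions. These were 7 and 6 of 8 in the Cd247 window and 6 and 9 of 11 in the chromosome 9 window. The regions of the chromosome 9 window kept in both WT libraries but not in both DKO libraries were regions 7, 14 and 16, each of which was found in DKO replicate 2. Whether the shorter DKO lists have a part in this was not tested.

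No region of either window had a peak in each 72 h library of a genotype and in none of its 0 h libraries, in DKO (0 of 31, against 0.135% of all regions) or in WT (0 of 27, against 0.634%). In DKO, 6 of 31 regions were found at 0 h and not at 72 h (regions 2, 9 and 14 of the Cd247 window and regions 4, 10 and 15 of the chromosome 9 window), or 19.4% against 33.8% of all regions. In WT, 2 of 27 were found at 0 h and not at 72 h (region 14 of the Cd247 window and region 4 of the chromosome 9 window), or 7.41% against 14.2%. With every list at the length of the shortest, the DKO count at 0 h was 0 and that at 72 h was 1, the opposite direction. Leaving out DKO 72 h replicate 2 raised the DKO count at 0 h to 10, and leaving out DKO 0 h replicate 2 raised it to 11. In WT the count was 7 at 0 h without WT 72 h replicate 2, 4 without WT 0 h replicate 1, and 1 at 72 h without WT 72 h replicate 1. Shares over all regions were not computed for these alternatives.

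Fold was lower at 72 h at most regions with peaks at both times. In DKO, 13 of 14 regions had both 72 h values below both 0 h values, or 92.9% against 97.6% of all such regions, and 0 had them above (0.193% of all). Region 16 of the Cd247 window was the exception, where 39.3 and 59.5 at 72 h overlapped 68.8 and 50.4 at 0 h. In WT, 12 of 15 regions had both 72 h values below, or 80% against 75.7% of all such regions, and 0 had them above (1.22% of all, and 2 regions of these windows without WT 72 h replicate 1). Regions 4 and 17 of the Cd247 window and region 16 of the chromosome 9 window were the exceptions in WT. With fold divided by the median of its list, 12 of 14 regions in DKO and 9 of 15 in WT lay below. The shares among all such regions were then 92.1% and 64.8%. With every list at the length of the shortest, the counts below were 7 in DKO and 7 in WT. Fewer regions then had a peak in every library compared, so these counts are not out of 14 and 15. At full length the loci thus followed the whole lists, where the median fold was lower at 72 h as well.

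The first and last regions inside the Cd247 window, regions 1 and 17, lay 16045 and 1798 bp from its edges. The nearest regions outside were chr1:167639190-167640178, with a peak in 5 libraries at folds from 4.49 to 6.86, and chr1:167932353-167933620, in 4 libraries at folds from 5.86 to 13.0. For the chromosome 9 window they were chr9:44690432-44691481, in 6 libraries at folds from 7.08 to 12.3, and chr9:44906676-44906975, in 1 library at 4.40.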

How the data were processed

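Deposited CTCF CUT&RUN peak lists were used, 1 per library and not called on pooled samples, with 1 IgG list. The submitters' processing notes name FastQC, Bowtie2 2.2.5, MACS2 2.1.1 and build mm9, and which control and cutoffs were applied is not given in the sources used here. As deposited, the fold (ratio) column is the authors' enrichment per peak. Their caller's −log10 p and −log10 q columns were taken as deposited. The deposited score column, a whole number, was not used, and the deposited summit column is the distance from the peak's start.

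Peaks on chromosomes 1 to 19 and X overlapping by at least 1 bp were merged across libraries in Python 3.11.15 with numpy 2.4.6. Percentiles of rank are within a list, by −log10 p. Groups came from the sample titles. A region counted as found in a group alone when each of its libraries held a peak there and no library of the other group did. No test was run, and counts under the main rules stand beside those over all regions. The overlap step was tested on simulated lists. All 34 regions are named. The members and lists were chosen with earlier results of these data known. A planned list of T cell receptor signalling genes was not run, for want of gene models of mm9.

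Alternatives were −log10 q of at least 5, equal list lengths, overlap of 50% of the shorter peak, summits within 100 bp, 1 library sufficing for a group, leaving out each library, ranks by fold and merging gaps of up to 500 bp. Fold over the list median, the replicate number as a block, and the alternatives for fold counts, were added after seeing the data.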

Additional observations from a re-analysis of the deposited data

Results flagged for a closer look

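At regions 15 and 17 of the Cd247 window, the order of the genotypes by the authors' fold was opposite at the 2 times, with every DKO library below every WT library at 72 h and above at 0 h. For region 15 the DKO minus WT difference in mean fold was -6.11 at 72 h and 1.78 at 0 h. For region 17 it was -5.66 at 72 h and 6.43 at 0 h. The difference between the times was not tested. Among regions with a peak in all 8 libraries, 15.8% had this order, 2 of 12 in these windows, and 0 had the reverse. The order is thus not particular to these loci. Among all regions with a peak in the 4 libraries at 72 h, DKO lay below WT at 50.6% and above at 0.186%, so the reverse order could hardly occur.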

How the results depend on the processing

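The labels number the replicates 1 and 2 in every group but do not say that a number marks a shared animal or day. Between groups compared, log2 fold of replicate 1 over replicate 2 correlated at r = 0.017 to 0.044 across regions, and the numbers were not taken as pairing the libraries. Such a correlation cannot see a shift common to a whole library. The median of this log2 ratio was -0.463 in DKO and -0.628 in WT at 72 h, and -0.060 and 0.124 at 0 h. Whether libraries of the same number share an effect was not tested. With the replicate number as a block (fold compared within each number), DKO lay below WT at 72 h at 11 of 12 regions (87.6% of all regions), against 6 without it. Both replicate 1 lists at 72 h are the shorter of their group. The block changed no other fold count by more than 1.5 times. Counts are of regions in both windows. Shares over all regions were computed for the main rules, the block and fold over the list median, and not for the other alternatives. Counts under those others therefore cannot be set against the whole series. With every list at the length of the shortest (10339 peaks), regions in DKO alone numbered 2 at 72 h and 1 at 0 h, against 1 and 3 with full lists, and those in WT alone at 0 h 1, against 2. In DKO, 1 was then found at 72 h alone and 0 at 0 h alone, against 0 and 6, and 7 were in all 8 libraries, against 12. DKO fold lay below WT at 0 h at 0 regions, against 3, and 72 h fold below 0 h fold at 7 in DKO and 7 in WT, against 13 and 12. With a peak in at least 1 library, the counts were 8 for DKO alone at 0 h, 5 for WT alone at 72 h, 13 for 0 h alone in DKO, and in WT 1 for 72 h alone and 5 for 0 h alone. With −log10 q of at least 5, 1 region was in WT alone at 72 h. With summits within 100 bp, 2 were in DKO alone and 1 in WT alone at 72 h, and 1 was in DKO at 72 h alone. With fold over the list median, 1 region had DKO above WT at 72 h. By construction, equal lengths drop the lower-ranked peaks of the longer lists, and a peak in at least 1 library loosens the rule for presence. With equal lengths, fewer regions had a peak in every library compared, so fold counts are then of a smaller set. Other causes of these shifts were not tested. Leaving out a library loosens each rule and can let more regions into the fold counts, so a count could only stay or rise. With 1 library left out at a time, the count ran from 4 to 6 for DKO alone and from 2 to 3 for WT alone at 0 h, and from 1 to 2 for DKO alone and from 0 to 5 for WT alone at 72 h. It ran from 0 to 0 at 72 h alone and from 6 to 11 at 0 h alone in DKO, from 0 to 1 and from 2 to 7 in WT, and from 12 to 15 for all 8 libraries. For fold it ran from 11 to 16 (DKO above WT) and 3 to 5 (below) at 0 h, from 0 to 1 and 6 to 13 at 72 h, from 0 to 0 and 13 to 17 for 72 h above and below 0 h in DKO, and from 0 to 2 and 13 to 16 in WT. Of 27 regions found in both libraries of a group, the median rank percentile moved by less than its spread between libraries in 20 with ranks by fold, 27 at the stricter q and 26 with gaps merged.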
